A study of Mus musculus with 9 samples.

Results

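The reelin pathway genes described here were 8 genes named for their part in reelin signaling: the ligand gene Reln, the receptor genes Vldlr and Lrp8, the adaptor gene Dab1, the kinase gene Fyn, the adaptor genes Crk and Crkl, and Pafah1b1, which encodes Lis1. All 8 were found among the 37620 genes in the count files, and all 8 were among the 15069 genes with at least 1 CPM (counts scaled to library size) in at least 1 sample. RNA bound to ribosomes was sequenced from parvalbumin inhibitory neurons (PV INs) of hippocampal CA3/CA2 in PV-Cre:Rpl22HA f/f mice that were 2 months old when a lentivirus was injected into the dentate gyrus (DG). The 5 shNT samples came from mice given a non-target shRNA, and the 4 shRNA samples came from mice given an shRNA against Ablim3, a brake on the contacts that DG mossy fibers make onto PV INs. Tissue was taken 2 weeks later, and each sample pooled 6 mice of both sexes (30 mice for shNT and 24 for shRNA). Both groups carried the Cre driver, the tagged ribosome and a lentivirus. The comparison asks which RNAs on PV IN ribosomes differ after a treatment meant to increase the mossy fiber input onto these cells.

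The tag is expressed in cells in which the parvalbumin Cre driver has been active, and the pulldown can carry RNA of other cells. Fewer cells that express a gene and less RNA of that gene per cell cannot be told apart in such pooled samples. Nothing in the sources states whether the samples were made on separate days, so p-values measure only the spread between these 9 pools. Counts assigned to genes ran from 19680352 to 34578837 per shNT sample and from 18281719 to 30421093 per shRNA sample. Ablim3, whose shRNA was delivered to DG and not to the sequenced cells, had 22.6, 12.1, 22.2, 15.4 and 12.3 CPM in the shNT samples against 21.7, 19.5, 19.4 and 13.7 CPM in the shRNA samples, and these ranges overlapped. All 12 markers of PV INs that were looked up were detected. Their summed level was 5080 to 8310 CPM in shNT samples and 2990 to 7220 CPM in shRNA samples, and all 12 had negative log2 fold changes with none called. Pvalb itself averaged 998 ± 287 CPM (SD, n = 5) in shNT and 526 ± 163 CPM (SD, n = 4) in shRNA samples. Its log2 fold change was -0.92 (edgeR FDR = 0.0678), and its groups overlapped. The 10 astrocyte markers summed to 561 to 1040 CPM in shNT samples and to 905 to 4870 CPM in shRNA samples, with the highest value in shRNA replicate 4. Reads outside annotated exons made up 9.76% to 18.6% of uniquely aligned reads in shNT samples and 12.4% to 27.2% in shRNA samples, again highest in shRNA replicate 4. The part of these differences between libraries in the results below was not tested, except where values are given.

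Reelin is a large glycoprotein that neurons secrete into the extracellular matrix. It binds the very low density lipoprotein receptor (Vldlr) and the apolipoprotein E receptor 2 (encoded by Lrp8), whose intracellular tails hold the adaptor Dab1. Receptor clustering brings the Src family kinase Fyn to Dab1, phosphorylated Dab1 recruits Crk and Crkl, and Lis1 links the pathway to dynein and the microtubules. In the developing cortex and hippocampus reelin from Cajal-Retzius cells guides neuronal layering, and in the adult hippocampus it is made mainly by inhibitory neurons and is known for its action on glutamatergic synapses.

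Stretches of sequence introduce the genes whose levels are described first. Dab1 binds both receptors at the same short motif of their tails, NPxY, and the coding sequence around it is given from the mm9 annotation for each receptor, with the codons of the motif in capitals. The stretch of Vldlr lies at chr19:27322412-27322456 on the plus strand in exon 18 of 19, and that of Lrp8 at chr4:107541648-107541692 on the plus strand in exon 18 of 21.
Vldlr tail: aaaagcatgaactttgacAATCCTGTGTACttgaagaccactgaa
Lrp8 tail: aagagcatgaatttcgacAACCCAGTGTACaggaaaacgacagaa
The receptors were identical at 35 of these 45 bases and at 10 of the 12 bases of the motif. The motif was found in 3 of 7 annotated coding transcripts of Vldlr and in 5 of 6 of Lrp8, each read from its first listed coding base. Whether these transcripts are complete was not checked, so those with no match may be partial. Counts per gene do not separate transcripts with and without the motif. The third stretch is the 250 bases upstream of the RefSeq start of Reln, the gene with the largest fold change of the 8, at chr5:22344706-22344955 on the minus strand of GRCm38.p6, a later build than that of the counts. Capitals mark GC boxes (GGGCGG, searched on both strands).
Reln promoter: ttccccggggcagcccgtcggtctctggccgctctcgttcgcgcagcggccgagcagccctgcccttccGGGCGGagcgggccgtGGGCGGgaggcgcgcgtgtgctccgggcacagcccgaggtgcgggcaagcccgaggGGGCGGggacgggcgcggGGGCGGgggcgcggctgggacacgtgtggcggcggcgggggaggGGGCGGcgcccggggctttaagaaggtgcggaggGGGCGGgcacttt
This stretch held 6 GC boxes and 37 CG dinucleotides and was 80.0% G or C. Of 32851 RefSeq promoters of that length, 32.7% held at least 1 GC box and 2.2% held as many CG dinucleotides or more, with a median of 6. The letters TATAAA, which 12.4% of promoters held, were not in this window. The other members had 0 or 1 GC box in each listed promoter, and between 2 and 40 CG dinucleotides.

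Reln rose in the shRNA samples. Reln (ENSMUSG00000042453) lies on mm9 chromosome 5 from 21390272 to 21850523 on the minus strand and spans 460.3 kb with 19.8 kb of exon. After TMM scaling, the shNT replicates 1 to 5 had Reln at 9.25, 7.30, 7.72, 4.49 and 5.18 CPM, and the shRNA replicates 1 to 4 had it at 12.1, 13.5, 15.98 and 19.1 CPM. The lowest shRNA sample exceeded the highest shNT sample. Means were 6.79 ± 1.94 CPM for shNT (SD, n = 5) and 15.2 ± 3.07 CPM for shRNA (SD, n = 4). The log2 fold change was 1.16 with a standard error of 0.23 and a 95% interval from 0.65 to 1.67, a 2.23-fold difference. By the quasi-likelihood test of edgeR, in the form of its version 3 that is the default of the installed version, the FDR was 0.0414 after Benjamini-Hochberg adjustment over all genes tested. Genes were called at an FDR under 0.05 with a change of at least 1.5-fold, and Reln was the only one of the 8 called. Of all genes tested 1.75% were called, 1.74% as higher and 0.0133% as lower. Of the 507 genes that span over 300 kb, as Reln does, 6.31% were called higher. A two-sided exact permutation of the samples, applied to log2 Reln, gave p = 0.00794, the smallest value that this design allows.

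The call of Reln depended on single samples. In fits that each lacked 1 sample, its log2 fold change stayed between 0.96 and 1.30, and the FDR ran from 0.0213 to 0.169 (edgeR). The call was lost without shNT replicate 3 (FDR = 0.0744), 4 (0.155) or 5 (0.169), and without shRNA replicate 1 (0.086), 3 (0.121) or 4 (0.0653). The fit without shRNA replicate 4 called 142 of all genes, and the other fits that lost the call of Reln called no gene at all. Reads of Reln came to between 89 and 424 per sample, so its values rest on fewer reads than those of the other members. Of its exon sequence 1.2% overlaps the gene Gm10475 on the opposite strand, and the counting did not use strand.

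The reelin receptor genes and Dab1 had positive log2 fold changes that did not pass the test. Vldlr (ENSMUSG00000024924, mm9 chromosome 19, 27290974 to 27328721, plus strand) had 30.3, 29.4, 31.1, 27.4 and 26.3 CPM in the shNT samples and 40.6, 35.0, 43.3 and 44.3 CPM in the shRNA samples. The groups did not overlap, and the shNT samples lay close together. Means were 28.9 ± 2.02 CPM for shNT (SD, n = 5) and 40.8 ± 4.15 CPM for shRNA (SD, n = 4). The log2 fold change was 0.50 (95% interval 0.23 to 0.77, standard error 0.12, edgeR FDR = 0.0558), a 1.41-fold difference that is also under the 1.5-fold minimum. The exact permutation test gave p = 0.00794.

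Lrp8 (ENSMUSG00000028613, mm9 chromosome 4, 107474866 to 107549445, plus strand) had 49.6, 35.8, 45.0, 25.7 and 28.0 CPM in the shNT samples and 46.2, 47.2, 46.9 and 75.3 CPM in the shRNA samples. The groups overlapped, and only shRNA replicate 4 lay above all shNT samples. Means were 36.8 ± 10.4 CPM for shNT (SD, n = 5) and 53.9 ± 14.3 CPM for shRNA (SD, n = 4). This is a difference of 0.55 on the log2 scale (95% interval 0.0473 to 1.048, edgeR FDR = 0.12). Without shRNA replicate 4 the log2 fold change of Lrp8 was 0.33 (FDR = 0.309), without shNT replicate 4 it was 0.36 (FDR = 0.328) and without shNT replicate 5 it was 0.37 (FDR = 0.333, edgeR for all). An exact permutation test over all samples gave p = 0.0952.

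Dab1 (ENSMUSG00000028519), whose protein is the step that both receptors share, spans 1125.5 kb on mm9 chromosome 4 from 103291964 to 104417449 on the plus strand. Dab1 stood at 64.3, 54.9, 50.5, 37.3 and 39.3 CPM in the shNT samples and 90.9, 71.8, 84.0 and 84.8 CPM in the shRNA samples. The groups did not overlap. Means were 49.2 ± 11.2 CPM for shNT (SD, n = 5) and 82.9 ± 8.02 CPM for shRNA (SD, n = 4). The log2 fold change of Dab1 was 0.75 (95% interval 0.37 to 1.13, standard error 0.17, edgeR FDR = 0.0503), a 1.68-fold difference that missed the FDR threshold by a small margin. The exact permutation test gave p = 0.0159. Dab1 passed the threshold without shNT replicate 1 (edgeR FDR = 0.0233) or 2 (FDR = 0.0488), in fits that called 1417 and 482 of all genes. Its FDR reached 0.169 without shNT replicate 5, where no gene at all was called. Log2 fold changes of Dab1 ran from 0.59 to 0.87 over the 9 fits that left out 1 sample. The version 4 form of the test called Dab1 (FDR = 0.0464) and 2.63% of all genes. The likelihood ratio test of edgeR, its exact test, DESeq2 and limma voom called Dab1 and Reln too, and they called 14.8%, 14.6%, 15.7% and 19.4% of all genes tested. Neither gene was called with library size only, upper quartile scaling, filterByExpr or the replicate block. The edgeR FDR of Dab1 was then 0.0708, 0.0718, 0.0646 and 0.297. Library size only, upper quartile scaling and filterByExpr called no gene at all, and the replicate block called 29 of all genes.

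Of the 8 genes, 3 (Reln, Vldlr and Dab1) had groups that did not overlap with shRNA higher, against 8.97% of all genes tested, and none had groups that did not overlap with shRNA lower, against 6.68%. The median log2 fold change of the 8 genes was 0.28, and that of all genes tested was 0.11.

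**Figure D1:**
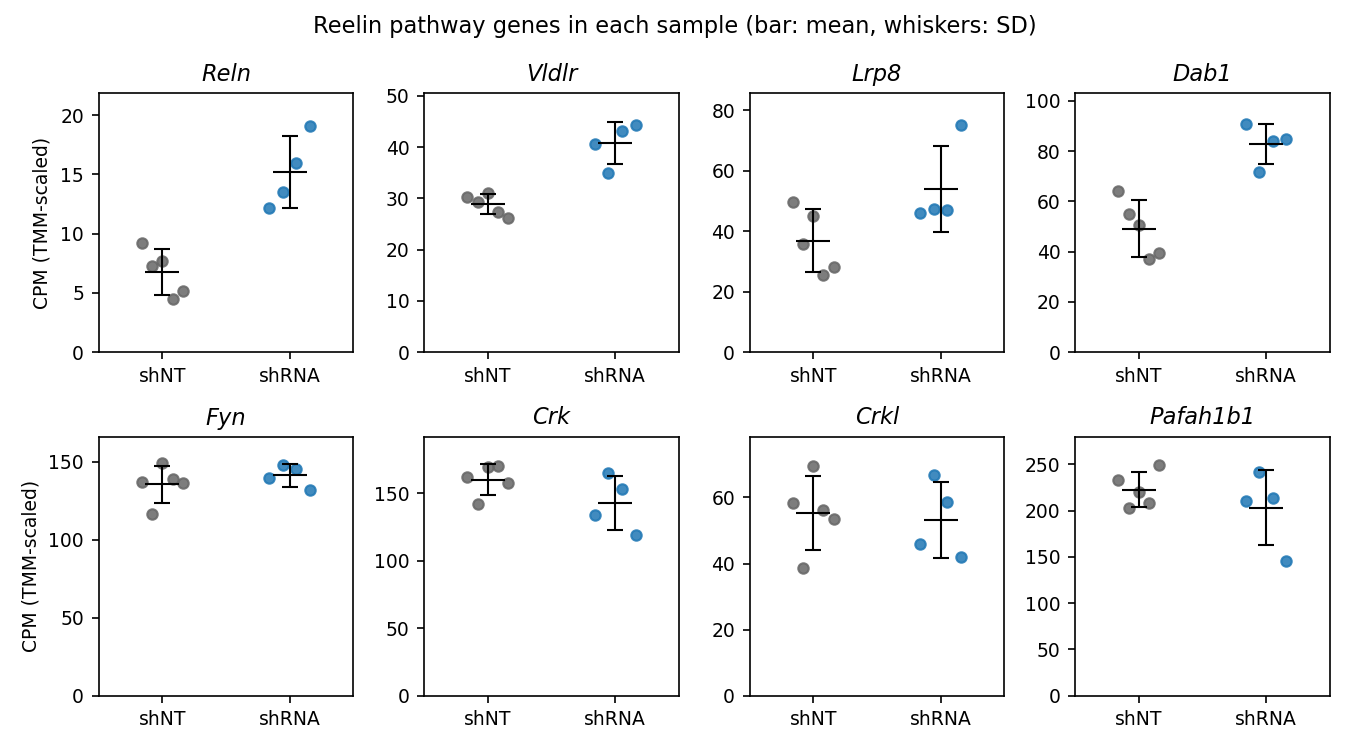
TMM-scaled CPM of the 8 reelin pathway genes (vertical axes, each from 0), with 1 point per sample for 5 shNT samples (gray) and 4 shRNA samples (blue), the mean as a bar and the SD as whiskers. The points of the groups do not overlap for Reln, Vldlr and Dab1, 1 shRNA sample of Lrp8 at 75.3 CPM stands above the rest, and the points of Fyn, Crk, Crkl and Pafah1b1 overlap.

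The 4 genes that act with or after Dab1 were not called, and their groups overlapped. Fyn (ENSMUSG00000019843, mm9 chromosome 10, 39088661 to 39285187), which phosphorylates Dab1, had 137, 116.5, 149, 139 and 136 CPM in the shNT samples and 139.5, 148, 145 and 132 CPM after shRNA. Its log2 fold change was 0.06 (95% interval -0.21 to 0.33, edgeR FDR = 0.751), the narrowest interval of the 4 genes. The intervals of all 4 lay within 1.5-fold in either direction.

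Crk (ENSMUSG00000017776, mm9 chromosome 11, 75492761 to 75520410) and Crkl (ENSMUSG00000006134, mm9 chromosome 16, 17452080 to 17486348) encode related adaptors that bind phosphorylated Dab1. Crk averaged 160 ± 11.5 CPM (SD, n = 5) in shNT and 142.6 ± 20.2 CPM (SD, n = 4) in shRNA samples, with 2 shRNA samples below all shNT samples and a log2 fold change of -0.17 (95% interval -0.47 to 0.14, edgeR FDR = 0.401). Crkl ranged from 38.7 to 69.6 CPM in shNT samples and from 41.9 to 66.9 CPM in shRNA samples, with a log2 fold change of -0.05 (95% interval -0.47 to 0.37, edgeR FDR = 0.863). The direction for Crkl turned with several settings, among them the percentage of reads outside exons as covariate (0.24).

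Pafah1b1 (ENSMUSG00000020745, mm9 chromosome 11, 74487451 to 74538172, minus strand) had 233, 203, 220, 208 and 249 CPM in the shNT samples and 211, 242, 213 and 146 CPM after shRNA. Only shRNA replicate 4 lay below all shNT samples. The log2 fold change was -0.13 (95% interval -0.49 to 0.23, edgeR FDR = 0.575), and it turned to 0.05 with the percentage of reads outside exons as covariate.

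**Figure D2:**
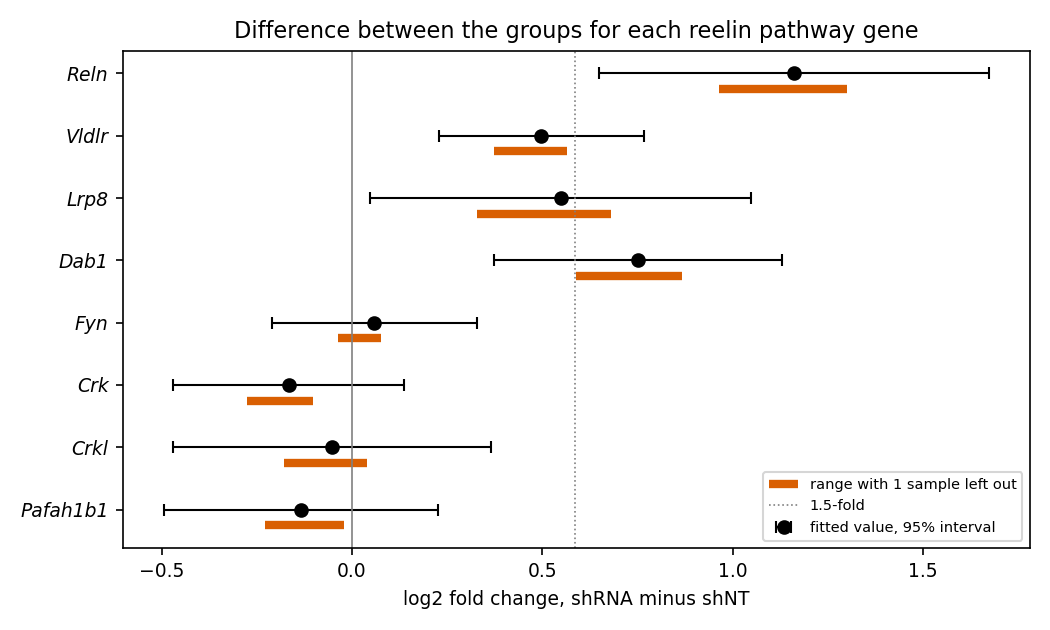
Log2 fold change of each reelin pathway gene, shRNA minus shNT (horizontal axis), with its 95% interval (black) and the range of values with each of the 9 samples left out in turn (orange). The dotted line marks 1.5-fold. The intervals of Reln, Vldlr, Lrp8 and Dab1 lie above 0, that of Reln from 0.65 to 1.67, and the intervals of Fyn, Crk, Crkl and Pafah1b1 include 0.

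Ratios of a pair of members within a sample do not depend on how samples are scaled. They were looked at after the levels had been seen and are given with no test. The log2 ratio of Dab1 to Fyn was -1.49 ± 0.38 (SD, n = 5) in shNT samples and -0.77 ± 0.20 (SD, n = 4) in shRNA samples. Vldlr to Lrp8, the balance of the receptors, had log2 ratios of -0.31 ± 0.33 (SD, n = 5) and -0.37 ± 0.29 (SD, n = 4). Crk to Crkl had 1.56 ± 0.22 (SD, n = 5) and 1.43 ± 0.11 (SD, n = 4).

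Per kb of exon, the intracellular members stood highest in the shNT samples and the ligand lowest. Crk had 33.8 ± 2.42 CPM per kb (SD, n = 5), Fyn 31.1 ± 2.71, Pafah1b1 23.2 ± 1.95 and Crkl 14.3 ± 2.88. Dab1 had 6.19 ± 1.41 CPM per kb, Lrp8 3.50 ± 0.99 and Vldlr 2.87 ± 0.20, around the median of all genes tested, 4.62 CPM per kb. Reln had 0.34 ± 0.10 CPM per kb and was at percentile 11 of the genes tested in these libraries. Sample ranges overlapped between Crk and Fyn, between Dab1 and Lrp8 and between Lrp8 and Vldlr, and did not overlap between the other neighbors in this order. Lrp8 was above Vldlr in 4 of 5 shNT samples. In the shRNA samples the order was the same apart from Fyn (32.4 ± 1.66 CPM per kb, SD, n = 4) and Crk (30.2 ± 4.27), which changed places, and Reln stayed lowest at 0.77 ± 0.15 CPM per kb.

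**Figure D3:**
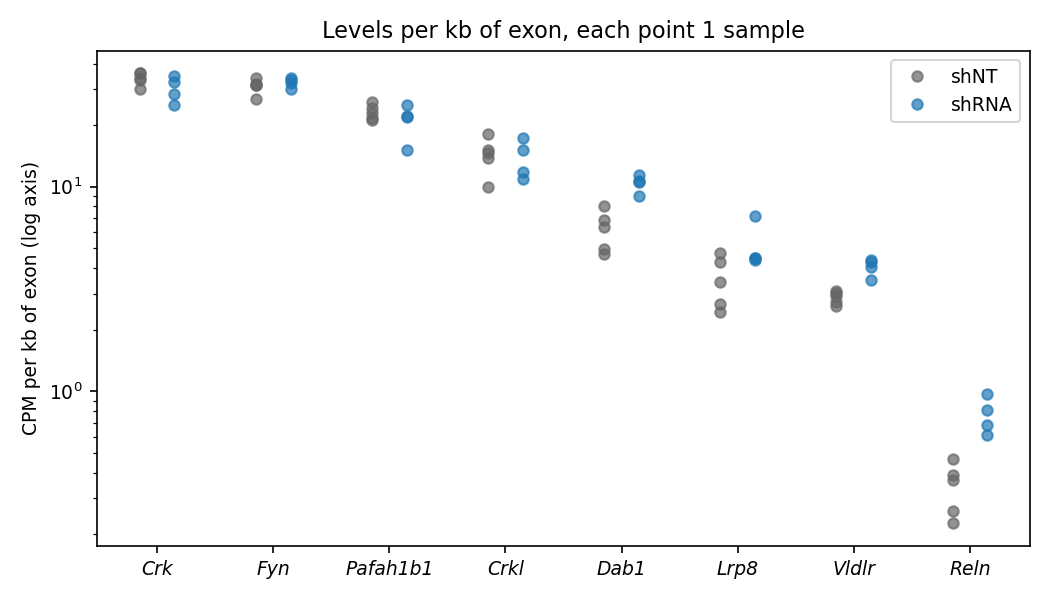
Level of each reelin pathway gene in CPM per kb of exon (vertical log axis), ordered by the shNT mean, with 1 point per sample for 5 shNT (gray) and 4 shRNA samples (blue). The means in shNT samples run from 33.8 for Crk to 0.34 for Reln, which is lowest in every sample.

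Several members varied together over the 9 samples. Log2 CPM of Reln had a Pearson r of 0.95 with Dab1, 0.94 with Vldlr and 0.90 with Lrp8. Fyn had 0.87 with Crkl and 0.18 with Reln, and Crk had 0.82 with Crkl and 0.79 with Pafah1b1. Reln had -0.58 with Crk. The samples of a group share their condition and each sample is 1 library, so these values describe the 9 libraries and carry no p. The difference between the groups is part of them. How many of all genes reach such r with Reln was not counted, so the values are not read as particular to the pathway.

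Among the 9494 genes averaging at least 10 CPM, the pattern of Reln was most like those of Prex1 (r = 0.99), Unc13a (0.99) and Ppp3ca (0.99). Vldlr was most like Grik4 (0.98), Epn2 (0.97) and Gabra2 (0.97). Lrp8 was most like Trps1 (0.99), Arhgap31 (0.98) and Tgfbr3 (0.97), and Dab1 was most like Srcap (0.99), Ercc5 (0.99) and Plekhg5 (0.99). After the group means were removed, r ranged from 0.84 for Gabra2 with Vldlr to 0.99 for Trps1 with Lrp8 and Srcap with Dab1. These genes were picked as the highest of all those compared over 9 libraries.

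The sample names fall into 2 sets, one with 3 shNT and 3 shRNA samples and one with 2 shNT samples and 1 shRNA sample, and what the sets mark is not stated. Within the larger set the difference in mean log2 CPM was 0.77 for Reln, 0.54 for Dab1, 0.38 for Vldlr and 0.12 for Lrp8. Within the smaller set it was 1.97, 1.15, 0.72 and 1.49, each against the single library of shRNA replicate 4. The direction of these 4 genes was the same in both sets. Fyn, Crkl and Pafah1b1 had 0.11, 0.07 and 0.02 in the larger set and -0.06, -0.39 and -0.64 in the smaller, and Crk had -0.07 and -0.46. A fit of the larger set alone called none of the 8 genes and no other gene (edgeR quasi-likelihood test). At an unadjusted p under 0.05 in that fit were 3 of the 8 and 1493 of all genes tested. With the name set as a block over all samples, Reln (edgeR FDR = 0.0352) and Dab1 (FDR = 0.0413) were among the 377 of 15069 genes that were called.

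The share of reads outside exons moved with some of these values. The sample with the highest share, shRNA replicate 4 at 27.2%, had the highest Reln, Vldlr and Lrp8 levels and the lowest Crk and Pafah1b1 levels of all 9. At similar shares, shNT replicate 2 (18.6%) had 7.30 CPM of Reln and 54.9 CPM of Dab1, and shRNA replicate 1 (19.8%) had 12.1 and 90.9 CPM. These are single libraries, 1 of each group, and their difference was not tested. The median share was 11.0% in shNT and 16.15% in shRNA samples, so share and group are in part confounded. With the share as a covariate the log2 fold change was 1.04 for Reln (edgeR FDR = 0.0887), 0.67 for Dab1 (FDR = 0.0973), 0.44 for Vldlr (FDR = 0.0996) and 0.34 for Lrp8 (FDR = 0.36). None of the 8 and no other gene was called in that fit (edgeR quasi-likelihood test). At an unadjusted p under 0.05 were 3 of the 8 and 4479 of the 15069 genes tested.

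**Figure D4:**
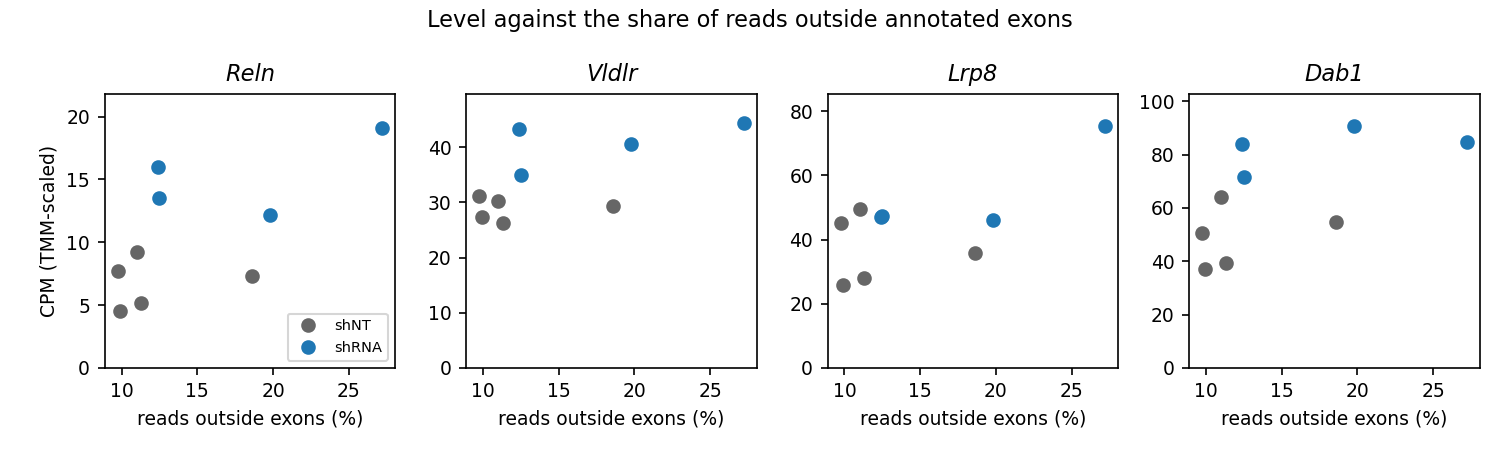
TMM-scaled CPM of Reln, Vldlr, Lrp8 and Dab1 (vertical axes, from 0) against the percentage of uniquely aligned reads outside annotated exons (horizontal axes), with 1 point per sample for shNT (gray) and shRNA (blue). The shRNA sample at 27.2% is highest for Reln, Vldlr and Lrp8, and shRNA samples at 12.4% and 12.5% are above the shNT samples for Reln, Vldlr and Dab1.

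Gene length also moved with the differences across all genes. The median log2 fold change was -0.13 among 4198 genes spanning under 10 kb, 0.25 among 4084 genes of 30 to 100 kb and 0.44 among 507 genes over 300 kb. Genes called higher made up 0.5%, 2.45% and 6.31% of these classes, in that order. Reln and Dab1 are in the last class, Vldlr, Lrp8, Crkl and Pafah1b1 in the middle one. After a trend with the length of the gene was subtracted, the log2 fold change was 0.61 for Reln, 0.22 for Vldlr, 0.15 for Lrp8 and 0.17 for Dab1. After a trend with exon length it was 0.35 for Reln, -0.07 for Vldlr, -0.04 for Lrp8 and 0.26 for Dab1. The values of Fyn, Crk, Crkl and Pafah1b1 were between -0.23 and -0.69 after either subtraction. These corrected values carry no test.

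Other cells that the tissue holds can express Reln. Of 9 markers of Cajal-Retzius cells, the neurons that supply reelin in development, 6 were tested and none was called. Of these 6, 5 were positive, and the median log2 fold change was 0.78. The summed level of the 9 was 17.1 to 30.9 CPM in shNT samples and 32.9 to 55 CPM in shRNA samples. Calb2, also listed as a marker of VIP and CCK interneurons, gave much of this sum, at 10.1 to 22.5 CPM and 22.9 to 28.7 CPM. The markers Lhx1, Lhx5 and Ebf3 were under 1 CPM in every sample and were not tested. Trp73 was at 0.551 to 1.96 CPM in shNT samples and 1.60 to 5.46 CPM in shRNA samples. Of 8 markers of neurogliaform interneurons, many of which make reelin, Kit was called higher (log2 fold change 1.28, edgeR FDR = 0.0403), and 5 of 8 were positive. Their mean log2 level, set to 0 at the shNT mean, was -0.28 to 0.21 in shNT samples and 0.25 to 0.51 in shRNA samples. Their summed level, to which Npy at 82.4 to 377 CPM gave much, was 363 to 540 CPM and 338 to 445 CPM. Among 5 tested markers of somatostatin interneurons, another reelin source, none was called and the sums were 468 to 769 CPM and 230 to 599 CPM. The 11 markers of CA3 and CA2 pyramidal neurons, which respond to reelin, summed to 632 to 1560 CPM in shNT samples and to 1650 to 2100 CPM in shRNA samples, with 10 of 11 positive and 1 called. Among 5 tested markers of VIP and CCK interneurons Cnr1 was called higher (1.19, edgeR FDR = 0.0404), and the sums were 119 to 188 CPM and 169 to 192 CPM. The 6 oligodendrocyte precursor markers were all positive with 3 called, and their sums, 47.2 to 82.6 CPM in shNT and 94.2 to 133 CPM in shRNA samples, did not overlap. The 8 oligodendrocyte markers were all positive with none called, and their sums were 769 to 2400 CPM and 1460 to 3040 CPM. Of 7 DG granule cell markers 6 were positive and none was called, with mean log2 levels of -0.66 to 0.52 and 0.62 to 1.07 on the same scale. The part of any of these cells in the Reln, Vldlr and Dab1 values was not tested.

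Of 59 further genes of the pathway, 58 were tested. Adamts2 was called higher and no gene was called lower, against 1.74% and 0.0133% of all genes tested. Positive log2 fold changes were found for 39 of the 58, or 67.2%, with a median of 0.14, beside 57.9% and 0.11 for all genes tested. At an unadjusted p under 0.05 there were 14 higher and 7 lower, and over all genes tested these shares were 20.7% and 13.4%. Groups did not overlap for 7 genes with shRNA higher (12.1%, against 8.97% of all genes tested) and for 4 with shRNA lower (6.9%, against 6.68%).

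The genes for proteases and their convertase that cut reelin or are known to act on its processing had positive log2 fold changes in 7 of 7 cases, beside 57.9% of all genes tested, with a median of 0.95 and 1 called. Adamts5 (0.09, FDR = 0.866), the convertase gene Furin (0.20, FDR = 0.531) and the plasminogen activator gene Plat (0.61, edgeR FDR = 0.187) did not pass the test. Plat was at 85.3 CPM in shRNA replicate 4. Its remaining shRNA samples, at 29.7 to 29.85 CPM, lay within the shNT range of 22.6 to 33.6 CPM. Adamts2, a metalloproteinase that cleaves reelin near its N terminus, rose from 1.17, 1.38, 1.34, 0.96 and 0.82 CPM in the shNT samples to 2.59, 2.74, 3.17 and 3.97 CPM in the shRNA samples. The groups did not overlap, and the log2 fold change was 1.46 (edgeR FDR = 0.0403, standard error 0.27). Reads of Adamts2 came to only 19 to 88 per sample, and shNT replicates 4 and 5 were under 1 CPM. Adamts2 kept a log2 fold change of 1.26 to 1.53 in fits that each lacked 1 sample. Its call was lost in 6 of 9, namely when shNT replicate 3, 4 or 5, or shRNA replicate 1, 3 or 4, was left out (edgeR FDR up to 0.169). The fit without shRNA replicate 4 called 142 of all genes, and the others of these 6 called no gene at all. Adamts3, another such enzyme, averaged 5.48 ± 1.97 CPM (SD, n = 5) in shNT and 10.6 ± 1.97 CPM (SD, n = 4, FDR = 0.0655). Adamts4 averaged 7.91 ± 2.58 CPM (SD, n = 5) in shNT and 15.2 ± 0.97 CPM (SD, n = 4, FDR = 0.0572, edgeR for both).

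Bmp1, a metalloproteinase that cuts reelin near its C terminus, had 8.72 to 23.9 CPM in the shNT samples and 43.2, 17.8, 22.6 and 94.7 CPM in the shRNA samples. The groups overlapped, with the highest value in shRNA replicate 4, and the log2 fold change was 1.51 (edgeR FDR = 0.0679). Bmp1 is also expressed outside neurons. The part of other cells in the values of any of these ligand cleavage genes was not tested.

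At the membrane, Efnb3, an ephrin ligand that can bind reelin as a co-receptor, averaged 30.1 ± 8.41 CPM (SD, n = 5) in shNT and 56.2 ± 11.5 CPM (SD, n = 4) in shRNA samples, with 0.90 as log2 fold change (edgeR FDR = 0.0564). Its groups did not overlap. For turnover of phosphorylated Dab1, the ubiquitin ligase gene Cbl had a log2 fold change of 0.71 (14.0 ± 3.60 and 22.8 ± 1.56 CPM, FDR = 0.063), and Rnf7, the RING partner of the cullin that marks Dab1 for degradation, had -0.64 (126.3 ± 31.0 and 81.2 ± 15.5 CPM, FDR = 0.0735, n = 5 and 4, edgeR quasi-likelihood test). Cbl had groups that did not overlap and Rnf7 had groups that did.

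The lowest FDR values among negative genes were otherwise in the downstream branches and in receptor turnover. Pafah1b3, a catalytic partner of Lis1, had 14.9 ± 1.54 and 10.3 ± 2.36 CPM (SD, n = 5 and 4), a log2 fold change of -0.54 (FDR = 0.0802), and its groups did not overlap. Cfl1, the actin-severing factor cofilin that is inhibited downstream of reelin, had -0.63 (FDR = 0.0858). Snx17, which recycles the lipoprotein receptors, had -0.36 (FDR = 0.099), and Cdk5, a kinase that acts in parallel to reelin, had -0.40 (FDR = 0.103, edgeR for all). Groups did not overlap for Cfl1 and Snx17, and they did for Cdk5.

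By branch, the medians of the log2 fold change were 0.30 for 5 co-receptor genes, 0.46 for 6 genes of other ligands and receptor turnover, and 0.16 for 6 genes of kinases and Dab1 turnover. They were 0.09 for the 7 genes after Crk and Nck, 0.04 for 15 genes of PI3K, Akt and Gsk3 signaling, and -0.09 for 9 genes of the Lis1 and dynein branch. The 3 partners of the receptor tail (Dlg4, Mapk8ip1 and Mapk8ip2) lay between 0.13 and 0.24. Apart from ligand cleavage no branch held a called gene.

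**Figure D5:**
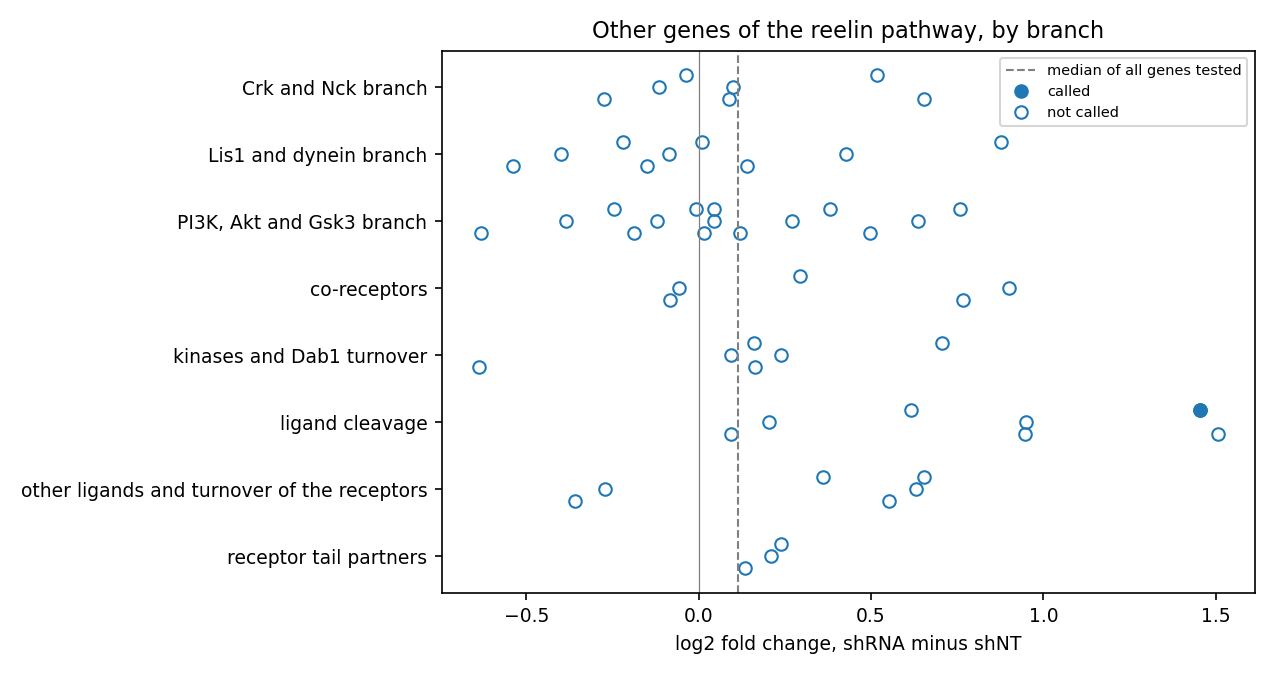
Log2 fold change, shRNA minus shNT (horizontal axis), of 58 further reelin pathway genes, 1 point per gene, in 8 branches (vertical axis), filled where called. The dashed line is the median of all genes tested, 0.11. The 7 ligand cleavage genes are all positive, with Adamts2 filled at 1.46, and the Lis1 and dynein branch lies on both sides of 0.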

How the data were processed

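The data were RNA sequencing of ribosome-associated RNA in 5 shNT and 4 shRNA samples. The authors made libraries with the SMARTer v4 kit, sequenced 50 bp reads, mapped them with STAR to mm9 and counted reads per gene with HTSeq 0.6.0 without strand. They deposited raw counts for each sample. The filter on low counts required a CPM of 1 in 1 or more samples, and counts were normalized with TMM and compared with the quasi-likelihood test of edgeR 4.0.16 (R 4.3.3) in its default, version 3 form, with Benjamini-Hochberg adjustment over 15069 genes. Calls needed an FDR under 0.05 and 1.5-fold. Single values were compared by exact two-sided permutation. Log2 levels used a prior count of 2.

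Names, positions and lengths came from the GENCODE annotation of mm9, which named 37205 of 37620 identifiers, and 3 list genes were matched through older symbols. Promoters came from RefSeq (GRCm38.p6), in which all 8 members were found. Lines of the count files that name no gene were left out of library sizes and held 9.76% to 27.2% of uniquely aligned reads outside exons, with 1.36% to 1.78% ambiguous.

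The members were listed by role in the pathway, and they and the gene lists were chosen with earlier results of these data known. The text names the 8 members, Ablim3, further pathway genes that were called or were among the 5 with the lowest FDR in each direction, and 3 genes most like Reln, Vldlr, Lrp8 and Dab1 each. Marker genes are named by list. Alternatives were the likelihood ratio and exact tests of edgeR, DESeq2 1.42.0, limma 3.58.1 with voom, other scalings and filters, blocks, a covariate, length trends and each sample left out. No pair of samples agreed within sampling noise.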

Additional observations from a re-analysis of the deposited data

Results flagged for a closer look

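In each group of 5 or 4 samples, the highest and the lowest CPM of the 8 members and of 11 further named pathway genes were set against the rest by Dixon's ratio, which chance exceeds in about 1 in 20 groups. Of 38 groups, 3 had a sample that stood apart, where chance alone would give about 1.9. Lrp8 was at 75.3 CPM in shRNA replicate 4, and the other 3 shRNA samples lay between 46.2 and 47.2 CPM (ratio 0.963). Pafah1b3 was at 17.6 CPM in shNT replicate 5, against 13.8 to 14.7 CPM in the other shNT samples (ratio 0.758). Snx17 was at 101.3 CPM in shRNA replicate 4, against 118 to 121 CPM in the other shRNA samples (ratio 0.843). That library, shRNA replicate 4, also had the highest share of reads outside exons, 27.2%, and the highest summed astrocyte markers, 4870 CPM. The part of either in the Lrp8 and Snx17 values was not tested.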

How the results depend on the processing

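Directions of Reln, Vldlr, Lrp8 and Dab1 stayed positive in the 15 alternative fits that differ from the reported one and the 9 fits without 1 sample, with log2 fold changes of 0.75 to 1.32, 0.35 to 0.56, 0.07 to 0.68 and 0.51 to 0.88. Only subtraction of the exon length trend made Vldlr (-0.07) and Lrp8 (-0.04) negative. Reln was called in 9 of the 15 alternatives and in 3 of 9 fits without 1 sample, Dab1 in 8 and 2, Adamts2 in 9 and 3, and Vldlr and Lrp8 in none. Counts of calls, in the order members, further pathway genes and all genes, were 1, 1 and 264 as reported. They were 2, 11 and 2230 with the likelihood ratio test, 2, 11 and 2193 with the exact test of edgeR, 2, 12 and 2363 with DESeq2, and 2, 12 and 2919 with limma voom. They were 2, 2 and 515 without a filter on low counts, 2, 2 and 377 with the name set as a block, 2, 1 and 397 with the quasi-likelihood test of version 4, and 2, 2 and 680 without shNT replicate 2 and shRNA replicate 4. The version 3 form of the test and no minimum fold gave the reported counts again. The version 4 form, the fit without both samples and the exon length trend were chosen after seeing the data.

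No gene at all was called by the edgeR quasi-likelihood test (0, 0 and 0) with library size only, with upper quartile scaling, with filterByExpr, with the larger name set alone or with the percentage of reads outside exons as covariate. Unadjusted p under 0.05 was then reached by 4, 4, 3, 3 and 3 members, by 21, 23, 18, 7 and 18 further genes and by 5258, 5360, 5139, 1493 and 4479 of all genes. With the replicate block they were 0, 0 and 29, with 3, 10 and 1882 at an unadjusted p under 0.05. Deviations of same-numbered samples from their group means correlated at -0.27, -0.64, 0.49 and -0.18, and not every sample correlated best with its own number. With means of only 5 or 4 libraries, these values cannot decide whether same-numbered samples were handled together. Without 1 sample the counts ran from 0 to 2, from 0 to 8 and from 0 to 1417, with 0 members called when the sample left out was shNT replicate 3, 4 or 5, or shRNA replicate 1, 3 or 4, and 3 or 4 members were under an unadjusted p of 0.05. Without shNT replicate 1 the further genes called were 8.

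Values near 0 turned their direction. Fyn had -0.00651 with filterByExpr, and without 1 sample it ran from -0.0361 to 0.0763, negative without shNT replicate 4 or 5 or shRNA replicate 3. Crkl had 0.0504 with limma voom, 0.0138 with the larger name set alone and 0.244 with the covariate, and without 1 sample it ran from -0.18 to 0.0396, positive without shRNA replicate 4. Pafah1b1 had 0.0456 with the covariate. The causes were not tested. The median log2 fold change of all genes was 0.11 with TMM, 0.17 with library size only, 0.12 with upper quartile and 0.07 with DESeq2 size factors.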
